A study of Mus musculus with 12 samples.

Results

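The genes described here are 10 genes of the blood-brain barrier endothelium, Cldn5, Ocln, Tjp1, Cdh5, Pecam1, Slc2a1, Mfsd2a, Abcb1a, Plvap and Sox17, out of 25749 genes listed for every library. They were selected by gene symbol alone, and all 10 were found in all 12 libraries. Brain tissue was sequenced from B6 mice, all male and 13 weeks old, with 4 mice in each of 3 groups. One group was uninjured, another had a cerebrovascular injury (injured), and the other had the injury and continuous antibody against the integrins LFA1 and VLA4 (antibody-treated). These integrins of leukocytes bind ICAM1 and VCAM1 on activated endothelium. Tissue was taken on day 20 after saline perfusion as a cube with 3 mm edges, and 500 ng of total RNA entered each library. How the cube was placed in uninjured mice, and which control antibody the other groups received, is not stated in the labels.

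Endothelial cells of brain capillaries form a barrier by sealing their cell borders with tight junctions, by suppressing vesicle transport and fenestrae, and by carrying nutrients inward and drugs outward through dedicated transporters. Wnt and beta-catenin signalling induces this state during development and keeps it in the adult. After vascular injury, leakage is commonly followed with claudin-5 and occludin at the junctions and with PLVAP, the protein of fenestral and stomatal diaphragms, which mature barrier capillaries largely lack.

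Exon reads per library ranged from 13330379 to 16121577, with the antibody-treated libraries the shallowest. Each of the 10 genes passed the filter on low counts. The share of mitochondrial transcripts was 10.27% to 12.01% in uninjured, 4.75% to 7.99% in injured and 8.83% to 11.01% in antibody-treated libraries. Levels are normalised CPM, exon reads scaled to the TMM-adjusted library size, and tests are edgeR quasi-likelihood tests with Benjamini-Hochberg adjustment over all 14771 genes tested, called at an adjusted p under 0.05. Uninjured replicate 1 and antibody-treated replicate 4 had the highest and lowest scores on principal component 1 (38.12 and -51.47, with 38.3% of the variance), so calls of the 10 genes that change without them are given both ways. In bulk tissue, fewer endothelial cells and less RNA per cell cannot be told apart. The summed level of 10 brain endothelial markers, 4 of them among the genes described, was 578 to 594 CPM in uninjured, 543 to 576 CPM in injured and 560 to 613 CPM in antibody-treated libraries, so endothelial transcripts were present in every library, and the uninjured and injured ranges did not overlap. The markers went both ways in injured against uninjured tissue: 1 was called higher (Cldn5) and 3 lower (Slco1a4, Itm2a and Slco1c1). Over all genes tested, 11.9% were called higher and 11% lower.

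Claudin-5 and occludin are the transmembrane proteins of the endothelial tight junction, and their promoters are shown as the pair in which 1 gene passed a test and the other did not. The sequences are the 250 bases upstream of the RefSeq start on GRCm38.p6, read 5′ to 3′ on the strand of the gene, with each GC box (GGGCGG on either strand) in capitals. The Cldn5 window lies at chr16:18776597-18776846 on the plus strand, and the first of 2 Ocln windows at chr13:100552719-100552968 on the minus strand. The second Ocln window overlaps the first, has a GC content of 69.2% and also holds 1 GC box.
Cldn5: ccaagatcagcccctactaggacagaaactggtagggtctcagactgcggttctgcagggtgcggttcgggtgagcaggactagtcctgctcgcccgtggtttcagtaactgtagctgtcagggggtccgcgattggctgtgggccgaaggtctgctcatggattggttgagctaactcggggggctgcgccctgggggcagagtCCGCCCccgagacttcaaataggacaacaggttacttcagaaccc
Ocln: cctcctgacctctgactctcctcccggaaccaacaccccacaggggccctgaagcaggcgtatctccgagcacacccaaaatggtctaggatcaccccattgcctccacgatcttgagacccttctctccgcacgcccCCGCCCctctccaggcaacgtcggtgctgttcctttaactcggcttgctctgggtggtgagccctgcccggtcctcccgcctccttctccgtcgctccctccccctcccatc
Both printed windows held 1 GC box. It was present in 32.7% of 32851 promoter windows of the same length. The GC content was 59.6% for Cldn5 and 64.0% for Ocln, against a median of 52.4% over these windows. The RefSeq promoter table held 6 of the 10 genes.

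Per unit of exonic length, Cldn5 and Slc2a1 were the most abundant of the 10 genes. Their mean over 12 libraries was 90.7 TPM (range 50.6 to 131) for Cldn5 and 69.1 TPM (59.3 to 81.7) for Slc2a1, the GLUT1 glucose transporter. Next came Tjp1, which encodes the junction scaffold ZO-1, at 24.3 TPM, the lipid transporter gene Mfsd2a at 23.1 TPM and the drug efflux pump gene Abcb1a at 17.4 TPM. Pecam1, which encodes the adhesion molecule CD31, stood at 14.6 TPM, Plvap at 12.6 TPM and Cdh5, the gene for VE-cadherin, at 7.58 TPM. The lowest were Ocln at 5.71 TPM and Sox17, a transcription factor of arterial endothelium, at 2.94 TPM. Neighbours in this order had ranges that did not overlap only for Slc2a1 above Tjp1, Mfsd2a above Abcb1a and Ocln above Sox17. Tjp1 was above Mfsd2a in 6 of 12 libraries, so this pair had no fixed order.

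**Figure D1:**
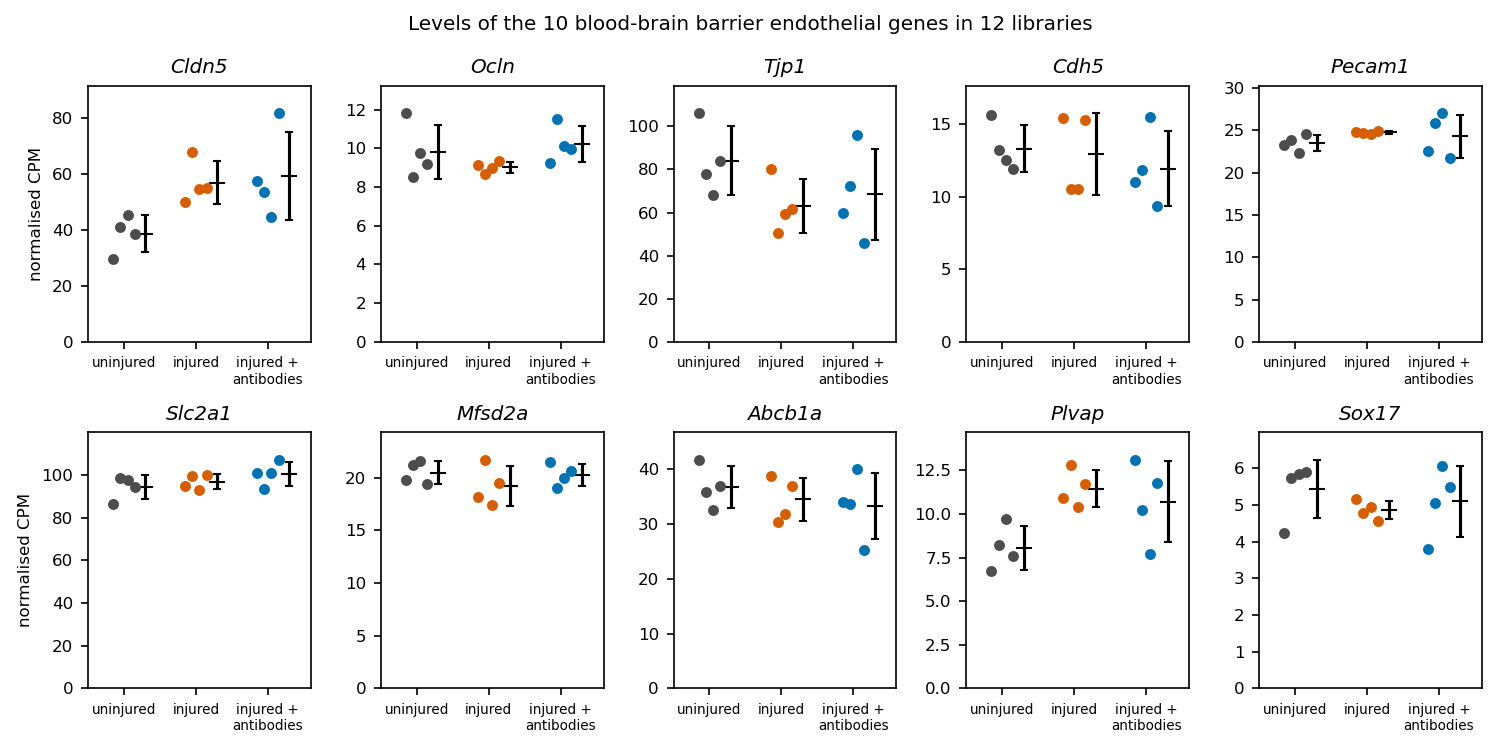
Normalised CPM (y axis, from 0) of the 10 genes in each of 12 libraries; points are libraries in replicate order within a group, and bars are the mean ± SD of 4. Cldn5 and Plvap lie higher in the injured libraries than in every uninjured library, and the antibody-treated libraries spread widely for Cldn5, Tjp1 and Plvap.

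The first comparison asked how barrier transcripts differed in injured tissue 20 days after injury. Cldn5 and Plvap were higher in injured tissue than in uninjured tissue, and none of the 10 genes was called lower. This count of 2 of 10 stands beside 23% of all genes tested that were called in this comparison, made up of 11.9% of the tested genes higher and 11% lower. The level ranges did not overlap between the groups for 3 of the 10 genes (Cldn5, Plvap and Pecam1), against 30.3% of all genes. The median log2 fold change was -0.07 over the 10 genes and 0.03 over all genes, and the median size without sign was 0.11 against 0.20.

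Cldn5 was measured at 29.7, 41.2, 45.4 and 38.4 CPM in the uninjured libraries. In the injured libraries it was 49.9, 67.9, 54.6 and 55 CPM, so each injured library lay above each uninjured library. The means were 38.7 ± 6.62 and 56.8 ± 7.74 CPM (SD, n = 4), a log2 fold change of 0.56 (SE 0.17, edgeR adjusted p = 0.0359) and a fold of 1.47 (95% interval 1.14 to 1.90). The gene is a single exon of 1416 bases on chromosome 16 (GRCm38, 18776847 to 18778262, plus strand), so no junction reads could be examined. The call was lost when uninjured replicate 1 (adjusted p = 0.107), 2 (0.0595) or 4 (0.0808), injured replicate 2 (0.105), 3 (0.0708) or 4 (0.0861), or antibody-treated replicate 1 (0.05, above the threshold before rounding) or 2 (0.0542) was left out of the edgeR fit. It was kept without the 2 libraries that principal component 1 set apart (log2 fold change 0.43, adjusted p = 0.0237).

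Plvap was measured at 6.72, 8.21, 9.73 and 7.58 CPM in the uninjured libraries and at 10.9, 12.8, 10.4 and 11.7 CPM in the injured libraries. The injured libraries again all lay above the uninjured libraries. The means were 8.06 ± 1.27 and 11.4 ± 1.07 CPM (SD, n = 4), a log2 fold change of 0.50 (SE 0.15, edgeR adjusted p = 0.0337) and a fold of 1.42 (1.13 to 1.78). These values rested on 100 to 206 exon reads per library. Intron reads of Plvap gave a log2 fold change of 0.55 (adjusted p = 0.195) and junction reads 0.43 (adjusted p = 0.448), in the same direction and short of the threshold, in edgeR fits that called 0.488% and 0.552% of all genes. A gene on the other strand, Gtpbp3, has 8.56% of its exonic bases within Plvap introns. Its mean was 17.1 CPM in uninjured and 20.1 CPM in injured libraries, so the intron reads need not all come from Plvap. The exon call was lost without uninjured replicate 1 (adjusted p = 0.102), 2 (0.0637) or 4 (0.0856), injured replicate 2 (0.0918), 3 (0.0551) or 4 (0.0925), or antibody-treated replicate 2 (0.0531). It was also lost without those 2 libraries (0.41, adjusted p = 0.0817). Of 6 markers of fenestrated or leaky endothelium 5 were tested, with 1 called higher (Plvap) and 1 lower (Cd24a). Over all genes tested, 11.9% were higher and 11% lower. The median log2 fold change of these markers was -0.04, against 0.03 over all genes.

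Cldn5 and Plvap share a feature that the selection did not use. Their longest transcripts hold 60.5% and 60.6% G and C, the 96.2 and 96.5 percentiles of all genes tested, while the other 8 genes range from 42.0% (Ocln) to 54.2% (Mfsd2a). The libraries differed in how GC-rich genes were represented. The GC trend of a library uses log2 levels centred on the mean of each gene. It is the median of the GC-richest 20% of genes minus the median of the GC-poorest 20%. It was -0.447, -0.142, -0.063 and -0.225 in the uninjured libraries, 0.129, 0.367, 0.263 and 0.596 in the injured libraries, and -0.052, -0.207, -0.372 and 0.119 in the antibody-treated libraries. All injured libraries thus lay above all uninjured libraries in this trend, which is the pattern of Cldn5 and Plvap. The matching trend for long against short transcripts ran from 0.585 in uninjured replicate 1 to -0.634 in antibody-treated replicate 4.

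After removal of a smooth trend on GC content and exonic length from each library (trend removal), neither gene was called in injured against uninjured tissue. Cldn5 had a log2 fold change of 0.16 (edgeR adjusted p = 0.156) and Plvap 0.14 (adjusted p = 0.384), and the level ranges of both groups overlapped. In the same fit Mfsd2a was lower in injured tissue, with a log2 fold change of -0.32 (adjusted p = 0.00815). Its trend-adjusted level was 22.5 ± 0.88 CPM in uninjured and 18 ± 1.25 CPM in injured libraries (SD, n = 4), without overlap. The call of Mfsd2a stands beside 818 higher and 1376 lower of all 14771 genes in that fit. For trend-adjusted levels, the share of all genes without overlap is not reported here. Whether the GC trend arose in the tissue or in library preparation was not tested.

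**Figure D2:**
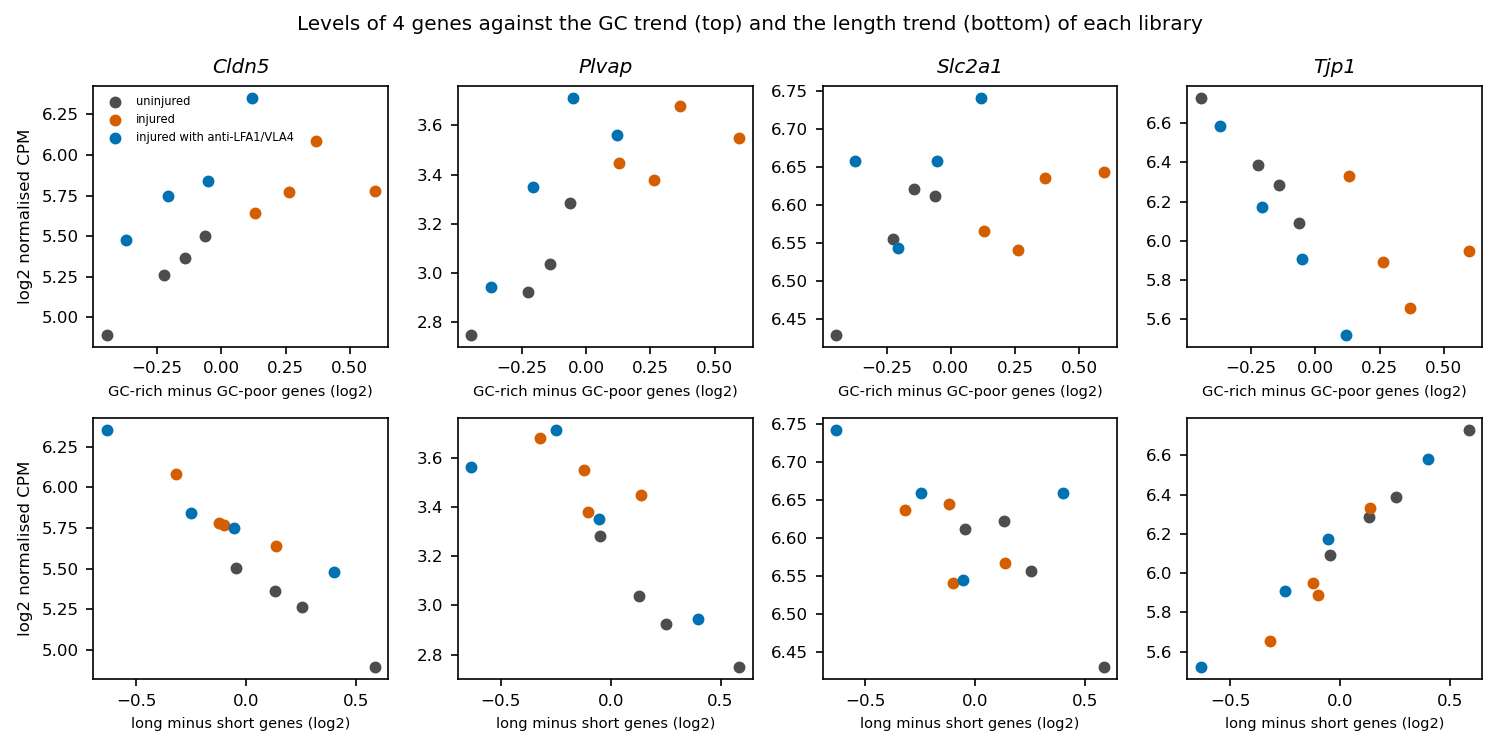
log2 normalised CPM (y axis) of Cldn5, Plvap, Slc2a1 and Tjp1 against the GC trend (top, log2) and the length trend (bottom, log2) of the same library; each point is 1 of 12 libraries, coloured by group. Levels of Cldn5 and Plvap are lowest in the library with the lowest GC trend (-0.447), while Tjp1 is highest there. The same library has the highest length trend (0.585). The genes and the trends come from the same libraries, and no test is attached.

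Tjp1 was measured at 106, 78.0, 68.2 and 83.7 CPM in uninjured, 80.4, 50.4, 59.3 and 61.8 CPM in injured and 60.0, 72.1, 95.9 and 45.9 CPM in antibody-treated libraries. The 3 groups overlapped, and the gene varied more between libraries than most of the others, by 19.2% to 31.0% of the mean within a group. Injured against uninjured tissue gave a log2 fold change of -0.42 (95% interval -0.86 to 0.02, edgeR adjusted p = 0.145). The call changed to lower when the antibody-treated libraries were left out of the fit (-0.43, adjusted p = 0.0440), and after trend removal the value was -0.25 (adjusted p = 0.166). Tjp1 has a long exonic length (7375 bases), and its level followed the length trend across the libraries in the plot of the library trends. Cldn5, with a short exonic length, ran broadly the other way in the same plot.

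Ocln stood at 9.81 ± 1.39 CPM in uninjured, 9.02 ± 0.291 CPM in injured and 10.2 ± 0.915 CPM in antibody-treated libraries (SD, n = 4). Its 3 groups overlapped, and injured against uninjured tissue differed by a log2 fold change of -0.12 (95% interval -0.34 to 0.11, edgeR adjusted p = 0.410). The interval spans a fold from 0.787 to 1.08. Ocln therefore did not share the call of Cldn5, although the difference between these genes was not itself tested.

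The adhesion molecules of endothelial borders were not called. Cdh5 was measured at 15.6, 13.2, 12.5 and 11.9 CPM in uninjured, 15.4, 10.5, 10.5 and 15.3 CPM in injured and 11, 11.8, 15.5 and 9.38 CPM in antibody-treated libraries, with the groups overlapping throughout. Its log2 fold change in injured against uninjured tissue was -0.04 (95% interval -0.40 to 0.32, edgeR adjusted p = 0.885). Pecam1 was 23.5 ± 0.931 CPM in uninjured and 24.8 ± 0.125 CPM in injured libraries (SD, n = 4). The injured libraries lay between 24.6 and 24.9 CPM, just above the highest uninjured library at 24.6 CPM before rounding, and the log2 fold change was 0.07 (-0.09 to 0.24, adjusted p = 0.485). The ratio of Cldn5 to Pecam1 was 4.83 ± 0.927, 6.73 ± 0.931 and 7.35 ± 2.66 in the uninjured, injured and antibody-treated groups (TPM over TPM, SD, n = 4). The ratio of Plvap to Cldn5 was 0.149 ± 0.0095, 0.144 ± 0.0109 and 0.131 ± 0.0247 in the same order. Pecam1 is also expressed by platelets and myeloid cells, and its transcript is less GC-rich (50.2%) than that of Cldn5.

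The transporters among the 10 genes were also not called before trend removal. Slc2a1 ranged from 86.2 to 98.5 CPM in uninjured, 93.1 to 100 CPM in injured and 93.3 to 107 CPM in antibody-treated libraries, so the groups overlapped. Its log2 fold change in injured against uninjured tissue was 0.04 (95% interval -0.09 to 0.18, edgeR adjusted p = 0.653), among the narrowest intervals of the 10 genes. Mfsd2a, whose product carries lysophosphatidylcholine lipids and restrains vesicle transport, ranged from 19.4 to 21.6 CPM in uninjured and 17.4 to 21.7 CPM in injured libraries (-0.10, -0.27 to 0.08, adjusted p = 0.385). Abcb1a, which encodes P-glycoprotein, was 36.8 ± 3.78 CPM and 34.4 ± 3.95 CPM (SD, n = 4; -0.10, -0.37 to 0.18, adjusted p = 0.600). Between 91.5% and 93.4% of Abcb1a reads matched 1 place, and unique reads gave no other call. Where the remaining reads also matched was not examined. An annotated gene on the other strand, Gm42686, shares 553 exonic bases (10.1%) with Abcb1a.

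Sox17 was measured at 4.24, 5.74, 5.84 and 5.90 CPM in uninjured, 5.16, 4.79, 4.94 and 4.56 CPM in injured and 3.79, 5.05, 6.06 and 5.48 CPM in antibody-treated libraries. The injured libraries lay between the lowest and the other uninjured libraries. The log2 fold change in injured against uninjured tissue was -0.16 (95% interval -0.47 to 0.15, edgeR adjusted p = 0.429), from 63 to 88 exon reads per library in the compared groups. An annotated gene on the other strand, Gm37587, covers 16.8% of the exonic bases of Sox17, and the labels do not say whether counting used the strand, so their reads cannot be told apart.

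The second comparison set injured, antibody-treated tissue against the same uninjured libraries. Cldn5 was higher and the other 9 genes were not called, a count of 1 of 10 beside 9.53% of all genes, 6.3% higher and 3.22% lower. No gene of the 10 had level ranges without overlap, against 15.6% of all genes. Cldn5 was 57.4, 53.7, 44.5 and 81.7 CPM in the antibody-treated libraries, and the lowest of these fell just under the highest uninjured library (45.4 CPM). The mean was 59.3 ± 15.9 CPM (SD, n = 4), a log2 fold change of 0.62 over uninjured tissue (SE 0.17, edgeR adjusted p = 0.0407) and a fold of 1.53 (95% interval 1.18 to 1.99).

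The call of Cldn5 in this comparison ended when uninjured replicate 1 (edgeR adjusted p = 0.118), 2 (0.0750) or 4 (0.0975), injured replicate 3 (0.0599) or 4 (0.0558), or antibody-treated replicate 1 (0.0840), 2 (0.0645) or 4 (0.0999) was left out. Antibody-treated replicate 4, the highest library, moved the log2 fold change to 0.42 when left out, and leaving out uninjured replicate 1 as well gave 0.30 (adjusted p = 0.206). The call was also lost when the injured libraries were left out of the fit (0.61, adjusted p = 0.0906). After trend removal it was kept, at a log2 fold change of 0.36 (adjusted p = 0.00285). The trend-adjusted level was 44.3 ± 2.75 CPM in uninjured and 57.1 ± 5.22 CPM in antibody-treated libraries (SD, n = 4), and the 2 groups then did not overlap. Cldn5 in antibody-treated against uninjured tissue was therefore the Cldn5 difference that remained called after this correction, at a smaller size. The fit after trend removal called 1162 higher and 2012 lower of all 14771 genes, against 931 and 476 before it. Trend removal without uninjured replicate 1 and antibody-treated replicate 4 was not fitted.

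Plvap was 13.1, 10.2, 7.70 and 11.8 CPM in the antibody-treated libraries, and replicate 3 lay within the uninjured range. The log2 fold change over uninjured tissue was 0.40 (SE 0.16, 95% interval 0.07 to 0.74, edgeR adjusted p = 0.118), and without antibody-treated replicate 3 it was 0.53 and called (adjusted p = 0.0139). After trend removal it was 0.25 (adjusted p = 0.104). The remaining 8 genes had log2 fold changes from -0.30 (Tjp1, -0.74 to 0.14) to 0.09 (Slc2a1, -0.04 to 0.23), each with an interval that held 0. Mfsd2a had the value nearest 0, at -0.02 (-0.19 to 0.16).

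The third comparison asked whether the antibodies changed barrier transcripts in injured tissue, and here none of the 10 genes was called by edgeR, DESeq2 or limma voom, beside 21.6% of all genes called by edgeR. None had an unadjusted edgeR p under 0.05 either, where 35.7% of all genes did, and none had level ranges without overlap, where 22% of all genes did. The median size of the log2 fold change was 0.07 over the 10 genes and 0.18 over all genes. Cldn5 differed by 0.06 (95% interval -0.31 to 0.43, edgeR adjusted p = 0.835) and Plvap by -0.10 (-0.42 to 0.23, adjusted p = 0.679). These intervals allow folds of 0.809 to 1.35 for Cldn5 and 0.745 to 1.17 for Plvap. The narrowest intervals were those of Slc2a1 (0.05, -0.08 to 0.19), Pecam1 (-0.03, -0.19 to 0.14) and Mfsd2a (0.08, -0.09 to 0.25). Trend removal made Slc2a1 higher in antibody-treated tissue by 0.16 (adjusted p = 0.0272) and left the other 9 uncalled. That fit called 1243 higher and 1507 lower of all 14771 genes.

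**Figure D3:**
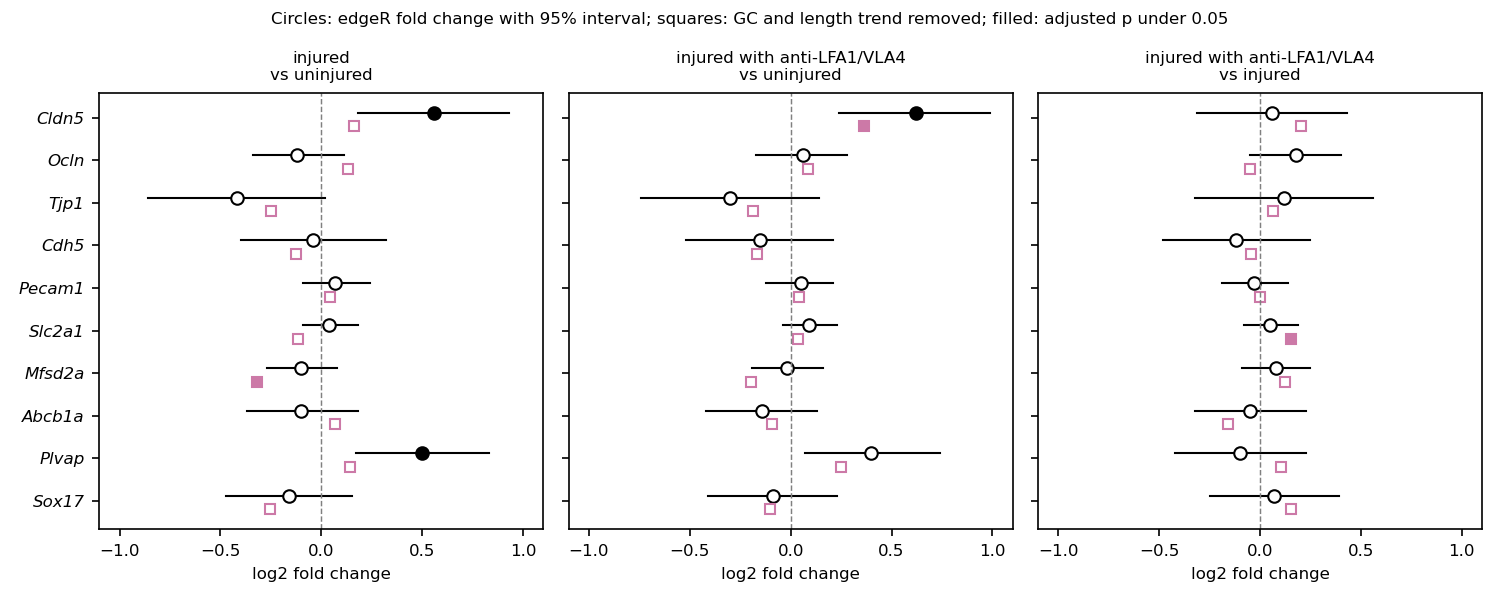
log2 fold changes (x axis) of the 10 genes in the 3 comparisons; circles with lines are edgeR estimates with 95% intervals, squares are estimates after trend removal, and filled symbols have an adjusted p under 0.05. The circles of Cldn5 and Plvap are filled in injured against uninjured tissue (0.56 and 0.50) and their squares (0.16 and 0.14) are open, whereas Cldn5 keeps a filled square (0.36) in antibody-treated against uninjured tissue.

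Intron reads, which come largely from unspliced RNA, gave calls that exon reads did not. Slc2a1 had 24, 18, 19 and 20 intron reads in the uninjured libraries, 41, 34, 37 and 49 in the injured libraries and 14, 18, 30 and 11 in the antibody-treated libraries. Every injured library thus held more than every other library. The log2 fold change was 0.84 in injured against uninjured tissue (edgeR adjusted p = 0.0601) and -0.79 in antibody-treated against injured tissue (adjusted p = 0.0200), a direction opposite to its exon value of 0.05. Tjp1 intron reads were higher in antibody-treated than in injured tissue (0.63, adjusted p = 0.0213), in a comparison where 9.5% of genes were called from intron reads. The Tjp1 value rested on 143 to 201 intron reads per library in the compared groups. An antisense gene, Gm12868, shares 105 exonic bases with Slc2a1, and other annotated genes lie within its introns, so its few intron reads need not all be its own. Junction reads called none of the 8 genes that passed their filter, in fits that called 0.552%, 2.53% and 4.24% of all genes in the 3 comparisons.

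Some genes followed the same course over the 12 libraries as closely as any among 13431 genes of at least 1 CPM. Likeness was the mean absolute difference of standardised log2 levels, whose median over genes was 1.06 for Cldn5. The nearest to Cldn5 were Ptgds (0.116), Cst3 (0.129) and Clu (0.13), with GC contents of 56.4%, 57.2% and 55.6%. The nearest to Plvap were Edem2 (0.207), Cd81 (0.224) and Rhpn1 (0.232), with GC contents of 53.3%, 50.3% and 59.9%, and the nearest to Tjp1 were Dmxl2 (0.11), Usp8 (0.111) and St8sia1 (0.118), with 44.3%, 46.0% and 45.5%. All of them share the libraries and their trends with the gene they resemble.

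Beyond the 10 genes, 111 related genes in 6 lists were counted, some of them in more than 1 list. Over all genes tested, 11.9% were higher and 11% lower in injured than in uninjured tissue, 6.3% and 3.22% in antibody-treated than in uninjured tissue, and 10.9% and 10.7% in antibody-treated than in injured tissue. The share of a list called in either direction was 5.88% to 25% in the first comparison, 5.88% to 37.5% in the second and 10% to 43.8% in the third, beside 23%, 9.53% and 21.6% of all genes. In both comparisons of antibody-treated tissue the highest share was that of the activation list, and in injured against uninjured tissue the junction and activation lists had 25% each. Of 20 further genes listed as transporters and receptors of the barrier, 0 were higher and 4 were lower in injured than in uninjured tissue. In antibody-treated against uninjured tissue 0 were higher and 3 lower. The list medians were -0.14 and -0.16 on the log2 scale, against 0.03 and 0.01 over all genes. Leaving out single libraries gave 2 to 7 calls in the first comparison (2 without injured replicate 4, 7 without antibody-treated replicate 3) and 3 to 9 in the second (5 without injured replicate 4, 9 without antibody-treated replicate 3). With scaling to library size alone the first comparison had 1 higher and 3 lower. In antibody-treated against injured tissue 1 was higher (Abcg2, 0.30, edgeR adjusted p = 0.0369) and 1 lower (Spock2, -0.29, adjusted p = 0.0160). Spock2 was in the list although its product is a proteoglycan and no transporter or receptor. There were 0 calls without injured replicate 4 or antibody-treated replicate 2, and 1 without uninjured replicate 2 or 4, injured replicate 1 or antibody-treated replicate 1.

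Tfrc, the transferrin receptor that takes up iron at the barrier, was 128 to 161 CPM in uninjured, 66.7 to 99.5 CPM in injured and 86.5 to 103 CPM in antibody-treated libraries. Both injured groups lay wholly below the uninjured libraries. The log2 fold changes against uninjured tissue were -0.80 (edgeR adjusted p = 0.00119) and -0.65 (adjusted p = 0.00215), called in 12 of 12 fits that left out 1 library and kept after trend removal (-0.44 and -0.58). Slco1a4, an organic anion transporter of brain endothelium, was 65.7 ± 6.61, 41.6 ± 4.41 and 47.1 ± 3.90 CPM in the 3 groups (SD, n = 4). It fell by 0.66 and 0.48 on the log2 scale (edgeR adjusted p = 0.00145 and 0.00616), also without overlap, in 12 of 12 such fits and after trend removal. Slco1c1, the thyroxine transporter, was lower in antibody-treated than in uninjured tissue (-0.33, adjusted p = 0.00739) in 12 of 12 such fits. Its difference in injured tissue (-0.25, adjusted p = 0.0227) was not called after trend removal (-0.07, adjusted p = 0.351). Abcg2, an efflux pump, was called lower in injured tissue (-0.34, adjusted p = 0.0214) and turned to 0.06 after trend removal. Tfrc is also expressed by neurons, and neuron markers stood at 5450 to 6200 CPM in uninjured, 4070 to 5050 CPM in injured and 4610 to 5440 CPM in antibody-treated libraries, so less endothelial and less neuronal Tfrc cannot be told apart here.

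Of 16 further tight and adherens junction genes, 3 were higher and 1 was lower in injured tissue, and 2 were higher and 2 lower with DESeq2 size factors. Lsr, which encodes a protein of tricellular junctions, was higher by 0.58 (edgeR adjusted p = 0.0143) and Nectin2, an adherens junction adhesion molecule, by 0.59 (adjusted p = 0.0179), and neither was called after trend removal (0.27 and 0.34). Annotated genes cover 44.7% of the exonic bases of Lsr. Cldn12, a claudin gene, was lower (-0.35, adjusted p = 0.0165) and kept its call after trend removal (-0.20, adjusted p = 0.0222). Antibody-treated against uninjured tissue had 1 higher and 0 lower, and antibody-treated against injured tissue 1 higher and 2 lower. With single libraries left out the calls numbered 1 to 5 in injured against uninjured tissue (1 without uninjured replicate 1 or injured replicate 4, 2 without injured replicate 3). They numbered 0 to 5 in antibody-treated against uninjured tissue (5 without antibody-treated replicate 3, 0 without any other library but uninjured replicate 3). They numbered 1 to 4 in antibody-treated against injured tissue (1 without injured replicate 3 or 4 or antibody-treated replicate 2).

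Of 17 genes of Wnt and beta-catenin signalling at the barrier, 4 were lower and 0 higher in antibody-treated than in injured tissue, with a list median of -0.12 against 0.01 over all genes. Apcdd1, a Wnt target and inhibitor, was 34.9 ± 1.48 CPM in injured and 26.3 ± 1.62 CPM in antibody-treated libraries (SD, n = 4), without overlap. The log2 fold change was -0.41 (edgeR adjusted p = 0.00165) in injured tissue and -0.47 (adjusted p = 0.000714) against uninjured tissue, where the call was lost after trend removal (-0.28, adjusted p = 0.102). Axin2, a general target of this pathway, was 24.7 ± 2.40 CPM in injured and 17.6 ± 2.93 CPM in antibody-treated libraries (-0.49, adjusted p = 0.00675). The calls of both genes against injured tissue were made in 12 of 12 fits without 1 library and kept after trend removal (-0.38 and -0.35). Nkd1 (-0.27, adjusted p = 0.0382) was called in 5 of 12 such fits. The number of lower genes was 2 to 7 over these fits, at 2 without uninjured replicate 2 or 4, injured replicate 1, 2 or 4, or antibody-treated replicate 2, and 7 without antibody-treated replicate 3. Injured against uninjured tissue had 1 higher gene (Notum, 0.46, adjusted p = 0.0498, called in 4 of 12 such fits, and adjusted p = 0.07 without the 2 libraries that principal component 1 set apart) and 0 lower genes, with 0 to 3 calls over these fits, and with DESeq2 size factors it had 0 higher and 1 lower. Antibody-treated against uninjured tissue had 0 higher and 1 lower (Apcdd1), with 2 calls without uninjured replicate 4 and 3 without antibody-treated replicate 3.

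Of 17 endothelial transcription factor genes, 3 were higher and 0 lower in injured tissue, and 4 were higher and 0 lower in antibody-treated than in uninjured tissue. Klf2, a factor induced by blood flow, was 6.86 ± 1.02, 11.1 ± 1.27 and 13.7 ± 1.46 CPM in uninjured, injured and antibody-treated libraries (SD, n = 4). The injured groups both lay above the uninjured libraries, by 0.70 (edgeR adjusted p = 0.00417) and 1.0 (adjusted p = 0.000177). After trend removal the difference was 0.30 in injured tissue (adjusted p = 0.0937) and 0.84 in antibody-treated tissue (adjusted p = 0.000137), and Klf2 is, like Cldn5, a GC-rich transcript (61.6%). Tal1, at low levels of 1.72 ± 0.243, 2.95 ± 0.389 and 2.92 ± 0.5 CPM in the same order, was higher by 0.78 (edgeR adjusted p = 0.00920) and 0.76 (adjusted p = 0.0128). It was called after trend removal as well. The factors of this list are not all restricted to endothelium, and the part of other cells was not tested. In antibody-treated against injured tissue 2 were higher (Klf4, 0.33, and Fli1, 0.55) and 1 lower (Ppard, -0.30, adjusted p = 0.0346, and 0.0629 without the 2 libraries that principal component 1 set apart). With scaling to library size alone these counts were 0 higher and 1 lower. Calls numbered 2 to 5 with single libraries left out in injured against uninjured tissue (5 without antibody-treated replicate 3). They numbered 2 to 6 in antibody-treated against uninjured tissue (2 without uninjured replicate 1, 2 or 3 or antibody-treated replicate 1 or 2). They numbered 0 to 3 in antibody-treated against injured tissue (0 without injured replicate 3 or antibody-treated replicate 1 or 2, and 1 without uninjured replicate 2 or 4 or injured replicate 2 or 4).

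Of 26 pan-endothelial genes, 0 were higher and 4 lower in injured tissue, led by Itm2a (-0.35, edgeR adjusted p = 0.00824), and with scaling to library size alone 3 were higher and 2 lower. In the other comparisons 1 was higher and 2 lower in antibody-treated than in uninjured tissue, and 3 were higher and 1 lower in antibody-treated than in injured tissue. Itm2a was 63.9 ± 0.42 CPM in uninjured, 50.1 ± 4.21 CPM in injured and 62.2 ± 4.79 CPM in antibody-treated libraries (SD, n = 4). Its fall in injured tissue was called in 12 of 12 fits without 1 library and after trend removal (-0.20, adjusted p = 0.00378), while its higher level in antibody-treated than in injured tissue (0.31, adjusted p = 0.00973) became -0.03 after trend removal. The list medians were 0.01, 0.06 and -0.02, near those of all genes. With single libraries left out the calls numbered 1 to 8 in injured against uninjured tissue (1 without uninjured replicate 1 or injured replicate 4, 2 without uninjured replicate 2 or injured replicate 2 or 3, 7 without antibody-treated replicate 4 and 8 without antibody-treated replicate 3). They numbered 2 to 9 in antibody-treated against uninjured tissue (9 without antibody-treated replicate 3) and 3 to 6 in antibody-treated against injured tissue.

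Of 19 genes of endothelial activation and permeability 16 were tested, and 3 were higher and 1 lower in injured tissue, 6 higher and 0 lower in antibody-treated than in uninjured tissue, and 7 higher and 0 lower in antibody-treated than in injured tissue. The medians were 0.11, 0.41 and 0.36, against 0.03, 0.01 and 0.01 over all genes. Lcn2, an iron-scavenging protein of inflammation, was 4.05 ± 0.407, 8.14 ± 0.745 and 22.8 ± 3.54 CPM in uninjured, injured and antibody-treated libraries (SD, n = 4), with no overlap between any groups. The log2 fold changes over uninjured tissue were 1.01 (edgeR adjusted p = 0.000888) and 2.49 (adjusted p = 2.92e-08). Icam1, the endothelial ligand of LFA1, was 2.67 ± 0.306, 4.25 ± 0.283 and 5.32 ± 0.532 CPM, higher by 0.67 (adjusted p = 0.00460) and 0.99 (adjusted p = 0.000155), and an annotated gene covers 11.7% of its exonic bases. Cavin1, a coat protein of caveolae, was 24.6 ± 1.89, 33.1 ± 1.29 and 34.9 ± 2.15 CPM, higher by 0.43 (adjusted p = 0.00332) and 0.50 (adjusted p = 0.000637). All of these calls over uninjured tissue were made in 12 of 12 fits without 1 library and after trend removal.

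In antibody-treated against injured tissue, Lcn2 (1.48, edgeR adjusted p = 5.23e-06), Cavin2 (0.54, adjusted p = 0.00127) and Cd44 (0.79, adjusted p = 0.00397) led the activation list. Cd44, a hyaluronan receptor of many cell types, was 4.36 to 4.91 CPM in uninjured, 4.08 to 7.64 CPM in injured and 8.61 to 11.9 CPM in antibody-treated libraries, the last group above both others. Vcam1, the ligand of VLA4, was 31.1 ± 2.16 CPM in injured and 38.7 ± 2.74 CPM in antibody-treated libraries (0.31, adjusted p = 0.00947). It was named after its values were seen, as the partner of a targeted integrin. The number of calls over single libraries left out was 4 to 7, at 4 without injured replicate 2 or 3. These genes are not restricted to endothelium.

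**Figure D4:**
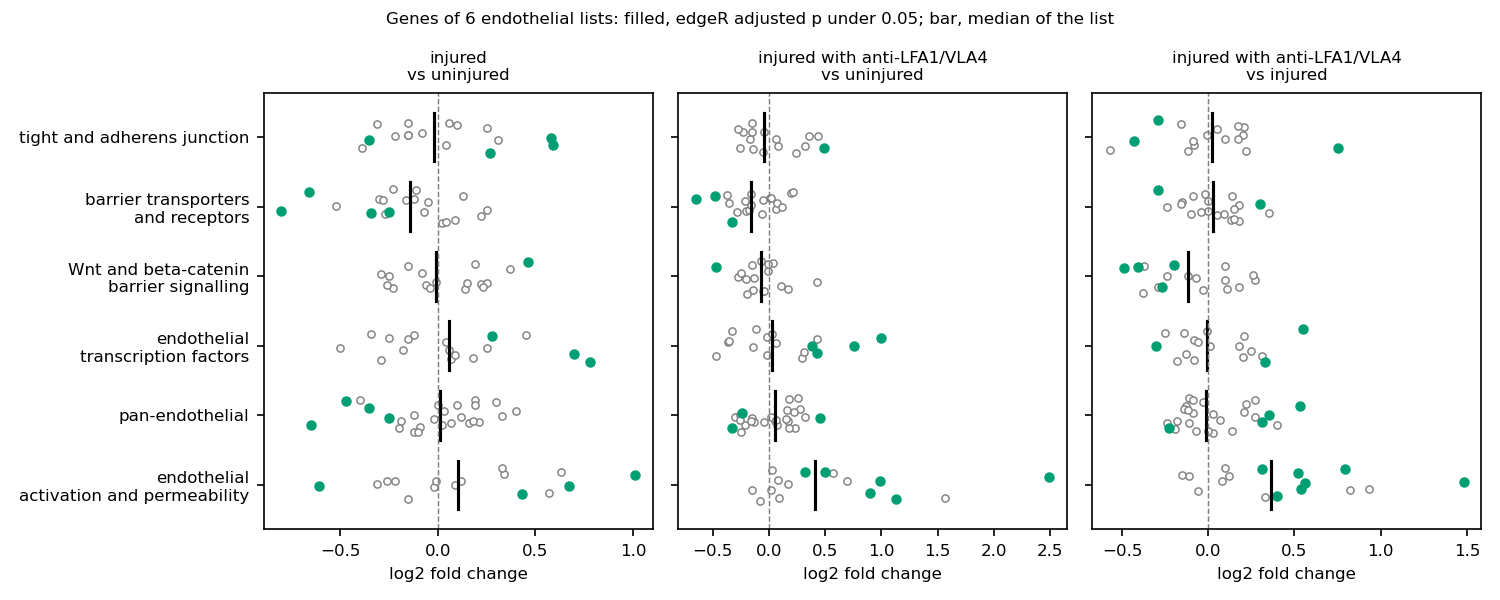
log2 fold changes (x axis) of the genes in 6 endothelial lists (rows) for the 3 comparisons; circles are genes, filled where the edgeR adjusted p is under 0.05, and the bar is the list median. Barrier transporters have filled circles only below 0 in both comparisons with uninjured tissue (1 higher in injured tissue with library size alone), and activation genes have their medians at 0.41 and 0.36 in both comparisons of antibody-treated tissue.

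Markers of other cells and regions differed between the groups along with these genes. Summed over 6 fibroblast markers, the level was 107 to 117 CPM in uninjured, 125 to 141 CPM in injured and 402 to 450 CPM in antibody-treated libraries, and 5 of 6 were called higher in antibody-treated than in injured tissue. Summed over 6 skeletal muscle markers it was 9.14 to 12.9, 11.1 to 14.0 and 102 to 127 CPM, with 6 of 6 called higher. For 6 markers of muscle or fat capillaries, of which 3 were tested, it was 2.01 to 3.29, 1.72 to 2.59 and 5.25 to 5.98 CPM, with Fabp4 and Cd36 higher in antibody-treated tissue. Neutrophil markers, with 3 of 5 tested and Ly6g at 0 in every library, summed to 0.805 to 1.37, 1.27 to 1.78 and 7.34 to 14.0 CPM. Macrophage and microglia markers, 8 in all, summed to 291 to 307, 352 to 378 and 447 to 541 CPM.

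Choroid plexus, whose capillaries are fenestrated and carry PLVAP, had 6 markers that summed to 958 to 1280, 782 to 1080 and 1110 to 1870 CPM, with 3 called lower in injured than in uninjured tissue and 6 called higher in antibody-treated than in injured tissue. Thalamus markers, 3 in all, summed to 40.0 to 43.6 CPM in uninjured, 78.1 to 82.3 CPM in injured and 74.5 to 76.4 CPM in antibody-treated libraries, so the sampled region differed in these markers between uninjured and injured mice. Striatum markers, 3 in all, summed to 431 to 518, 410 to 447 and 402 to 511 CPM in the same order. Drd1 and Drd2 among them were called lower in injured than in uninjured tissue, and higher in antibody-treated than in injured tissue. Pericyte markers, 10 in all, summed to 300 to 338 CPM over the 12 libraries, with Anpep and Vtn higher and Rgs5 and Abcc9 lower in injured than in uninjured tissue, and Anpep and Rgs5 higher and Notch3 and Cspg4 lower in antibody-treated than in injured tissue. The part of these cells and regions in the differences of the endothelial genes was not tested.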

How the data were processed

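RNA was measured by stranded total RNA sequencing in 12 libraries, 3 groups of 4. Trimmomatic 0.39, FastQC 0.11.8 and CASAVA 1.8.2 and the build GRCm38 are named in the submitters' processing notes. The sources used here do not name the aligner, the counting program or its use of strand. The deposited tables hold, per the file headers, the count of total and unique reads over exons, introns and junctions for 25749 genes, and no row lacked a gene. The authors also deposited TPM, which exon reads and exon lengths gave back. Exon reads per library ranged from 13330379 to 16121577. Gene identifiers matched GENCODE M21, from whose longest transcripts GC content was taken. Lengths are the deposited exon lengths of the genes.

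Total exon reads as deposited were filtered with filterByExpr, scaled with TMM and fitted in 1 edgeR 4.0.16 quasi-likelihood model (R 4.3.3) with all 12 libraries and group as the only term (9 residual degrees of freedom). The 3 contrasts between groups were two-sided, with Benjamini-Hochberg adjustment over 14771 genes. Replicates of a group were separate mice per the labels. TPM is not TMM-scaled. Alternatives were DESeq2 1.42.0 (Wald test, size factors), limma 3.58.1 voom, library size alone, other filters, unique reads, only the compared groups, a replicate block, each library left out, and a smooth trend on GC and length removed from each library with mgcv 1.9.3. The code was tested on simulated counts.

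Of each list, up to 3 genes of smallest p were named per comparison, and further genes are marked as such or only counted. For likeness, the 3 nearest genes were taken. The 10 genes, the lists, the rules and the trend removal were chosen with earlier results of these data known. The values of 1 junction gene are not reported here. Sequences come from RefSeq.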

Additional observations from a re-analysis of the deposited data

Results flagged for a closer look

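Sox17 had 1 uninjured library far from the other 3: 4.24 CPM in uninjured replicate 1, against 5.74 CPM in the nearest library. The gap was 0.899 of the range of the group, above Dixon's 95% critical value for 4 samples. It was 1 of 30 groups of values examined, where chance flags about 1 in 20. The same library has the lowest GC trend (-0.447) and the highest length trend (0.585) of the 12, and the part of these trends in its Sox17 level was not tested.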

How the results depend on the processing

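Of the 10 endothelial genes, 2 were called in injured against uninjured tissue. The number was 1 with the replicate number as a block (Cldn5), 1 after trend removal (Mfsd2a, lower), 1 without uninjured replicate 1 and antibody-treated replicate 4 (Cldn5), and 0 to 2 with single libraries left out. In antibody-treated against uninjured tissue 1 was called, and 0 with only the compared groups, 0 with the block, 0 without those 2 libraries, and 0 to 2 with single libraries left out. In antibody-treated against injured tissue 0 were called, 1 after trend removal (Slc2a1), and 0 with any single library left out. Over all genes, injured against uninjured tissue gave 3396 calls, 2194 after trend removal, and 1385 (without injured replicate 4) to 4606 (without antibody-treated replicate 4) with single libraries left out. Antibody-treated against uninjured tissue gave 1407 calls, 882 with only the compared groups, 895 with the block, 3174 after trend removal, 761 without those 2 libraries, and 853 (without antibody-treated replicate 1) to 3969 (without antibody-treated replicate 3) with single libraries left out. Antibody-treated against injured tissue gave 3193 calls, and 1890 (without injured replicate 4) to 3612 (without antibody-treated replicate 4).

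The directions that reversed were Slc2a1 on intron reads in antibody-treated against injured tissue (-0.793), Abcg2 after trend removal in injured against uninjured (0.063) and antibody-treated against injured tissue (-0.015), and Itm2a after trend removal in the latter (-0.03). The cause was not tested. Scaling to library size alone moved the all-gene median to 0.107 (log2) in injured against uninjured tissue. It put 76%, 86.3% and 43.8% of calls higher in the 3 comparisons, against 51.9%, 66.2% and 50.5% with TMM, and trend removal put 37.3%, 36.6% and 45.2% higher. Cldn5 kept its calls under every scaling, filter and test tool tried (log2 fold change 0.53 to 0.63 over the scalings in injured against uninjured tissue).

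Numbered replicates share no mouse, and the labels give no pairing by number. Deviations of same-numbered libraries correlated at 0.434, 0.174, -0.012 and 0.039 between injured and uninjured tissue. Between antibody-treated and uninjured tissue they correlated at -0.202, -0.031, -0.532 and -0.022, and between antibody-treated and injured tissue at -0.156, -0.125, 0.044 and 0.046. These values cannot decide whether a batch was shared by number. With the block, Plvap in injured against uninjured tissue was 0.50 (edgeR adjusted p = 0.0674) and Cldn5 in antibody-treated against uninjured tissue 0.61 (adjusted p = 0.0661).

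Trend removal moved several list counts by over 1.5 times. Over all 14771 genes, trend removal called 818 higher and 1376 lower in injured against uninjured tissue. It called 1162 and 2012 in antibody-treated against uninjured tissue, and 1243 and 1507 in antibody-treated against injured tissue. In injured against uninjured tissue it gave 0 higher and 2 lower of the Wnt list. In antibody-treated against uninjured tissue it gave 0 higher and 6 lower transporters, 1 higher and 2 lower Wnt genes, 2 higher and 6 lower pan-endothelial genes, and 8 higher and 2 lower activation genes. In antibody-treated against injured tissue it gave 0 higher and 1 lower transporter and 6 higher and 2 lower pan-endothelial genes. With only the compared groups, injured against uninjured tissue had 8 calls in the transporter list, 8 among pan-endothelial genes, 5 among transcription factors and 3 in the Wnt list. Over all 14512 genes tested in that fit, 2250 were higher and 2511 lower. Antibody-treated against injured tissue then had 1 among junction genes, 1 in the transporter list, 2 in the Wnt list, 0 among transcription factors and 4 among activation genes. There, 1058 of all 14595 genes were higher and 1072 lower. The depth limits Sox17, Ocln, Cdh5 and Plvap most, with at most 258 exon reads in any library.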
